A study of Rattus norvegicus with 46 samples.

Results

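The matrix proteases and their inhibitors described here are the 48 genes of the rat count table whose symbols name an ADAMTS protease, an ADAMTS-like protein, a matrix metalloproteinase (MMP) or a tissue inhibitor of metalloproteinases (TIMP). They were taken by symbol at any level, out of 32552 genes, and each symbol had 1 row. There were 19 ADAMTS, 4 ADAMTS-like, 21 MMP and 4 TIMP genes. Of the 48, 17 had a mean under 0.5 CPM (the count scaled to a fixed library size, with totals adjusted by TMM) in both tissues and are only listed. They are Adamts3, Adamts16, Adamts17, Adamts18, Adamts19, Mmp1, Mmp3, Mmp7, Mmp8, Mmp9, Mmp11, Mmp12, Mmp13, Mmp20, Mmp21, Mmp27 and Mmp28, and for Mmp1, Mmp11 and Mmp28 all 46 libraries held 0 counts. The filter on low counts kept 27 members in liver and 27 in quadriceps, 24 of them in both and 30 in at least 1 tissue.

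Bulk RNA was sequenced from liver and quadriceps muscle of wild-type (WT) rats with diet-induced obesity (DIO), a state that all 3 groups shared. The groups received vehicle, CagriSema (cagrilintide, an amylin analog, with semaglutide, a GLP-1 receptor agonist), or no drug but food restricted until body weight matched. Treatment lasted 20 days according to the design text, which speaks of liver. There were 8 vehicle, 8 weight-matched and 7 CagriSema liver libraries, and 7, 8 and 8 quadriceps libraries. The sources used here give no strain, age or sex, nor whether animals were pooled. Since no label ties a library to an animal of its own, each p-value below speaks for the spread among libraries, which may be technical.

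ADAMTS and MMP enzymes are zinc proteases that cut the extracellular matrix, and most are secreted as inactive proenzymes. TIMPs bind the active site of the metalloproteinases and block it, while ADAMTS-like proteins keep the binding modules of the ADAMTS family without the protease domain and attach to fibrillin microfibrils. In liver and in muscle, fibroblast-like cells such as stellate cells make much of the matrix and many of its proteases, and the balance of protease and inhibitor is known to shift during fibrosis and repair.

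The liver libraries held between 9888858 and 15948219 counts, the quadriceps libraries between 11462369 and 16525274. Taking 3 counts as the limit that a count of 0 allows, that is 0.188 to 0.303 CPM and 0.182 to 0.262 CPM, a limit for counting error alone. Markers of the labelled tissues were present, with hepatocyte genes summing to 101898 to 189201 CPM in liver and muscle-fibre genes to 104692 to 184464 CPM in quadriceps. Liver vehicle library 1 also held muscle-fibre genes at 76.5 CPM, against at most 0.493 CPM in the CagriSema livers and 0.362 CPM in the weight-matched ones. Vehicle libraries 4 and 6 of liver and 2, 5 and 8 of quadriceps stood apart on the leading principal components, so the main calls that rest on them are given with and without them. Of these, liver 4 had the lowest TMM factor of its tissue (0.742) and liver 6 its highest share of mitochondrial counts (9.29%). Quadriceps 8 had the highest such share of its tissue (22.8%), and quadriceps 2 and 5 had 11.0% and 14.9%. In such bulk tissue, fewer cells of a type and less RNA per cell cannot be told apart.

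Of the 30 tested members, 24 passed the filter in both tissues, but many stood at different levels, whatever the treatment. With all 46 libraries scaled together, 11 of the 30 tested members were higher in every quadriceps library than in any liver library. That is 36.7%, where 22% of all tested genes were so placed. Another 6 members, or 20%, were higher in every liver library, against 23.1% of all genes, and 13 members overlapped. These are descriptions of 2 organs and not results of treatment.

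Among the muscle-high members was Timp4, a TIMP known for its high level in heart and other striated muscle. It lay between 10.3 and 26.1 CPM in quadriceps and between 0 and 0.300 CPM in liver. Adamts20, a protease related to the proteoglycanases, lay between 13.3 and 29.7 CPM in quadriceps and was above 0 in 2 liver libraries, vehicle 1 and 5, at no more than 0.0711 CPM. The other muscle-high members were Adamts8, Adamts9, Adamts15, Adamtsl3, Adamtsl4, Adamtsl5, Mmp2, Timp2 and Timp3. Within the single tissues, Timp4, Adamts20 and Adamts8 passed the filter in quadriceps alone. Mmp2, the gelatinase A gene, had a mean of 46.4 CPM in quadriceps and 5.93 CPM in liver, a ratio of 7.83. Timp2, whose product both inhibits MMP2 and helps to activate its proenzyme at the cell surface, had a ratio of 6.36, with 51.5 against 8.09 CPM.

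The liver-high members were Adamts7, Adamts13, Adamtsl2, Mmp14, Mmp16 and Mmp19. Adamts13, which encodes the plasma protease that trims von Willebrand factor and is made largely by hepatic stellate cells, had a mean of 28.2 CPM in liver and 0.540 CPM in quadriceps. Mmp19, a secreted MMP that cuts basement membrane proteins, had 55.5 against 1.55 CPM, a ratio of 35.9. Adamts7, a protease of cartilage oligomeric matrix protein, had 44.2 against 1.44 CPM, a ratio of 30.7. In the same direction, Mmp14, which encodes the membrane-bound collagenase MT1-MMP, had 46.8 against 10.2 CPM. The plot of member levels by tissue sets both ranges side by side.

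**Figure D1:**
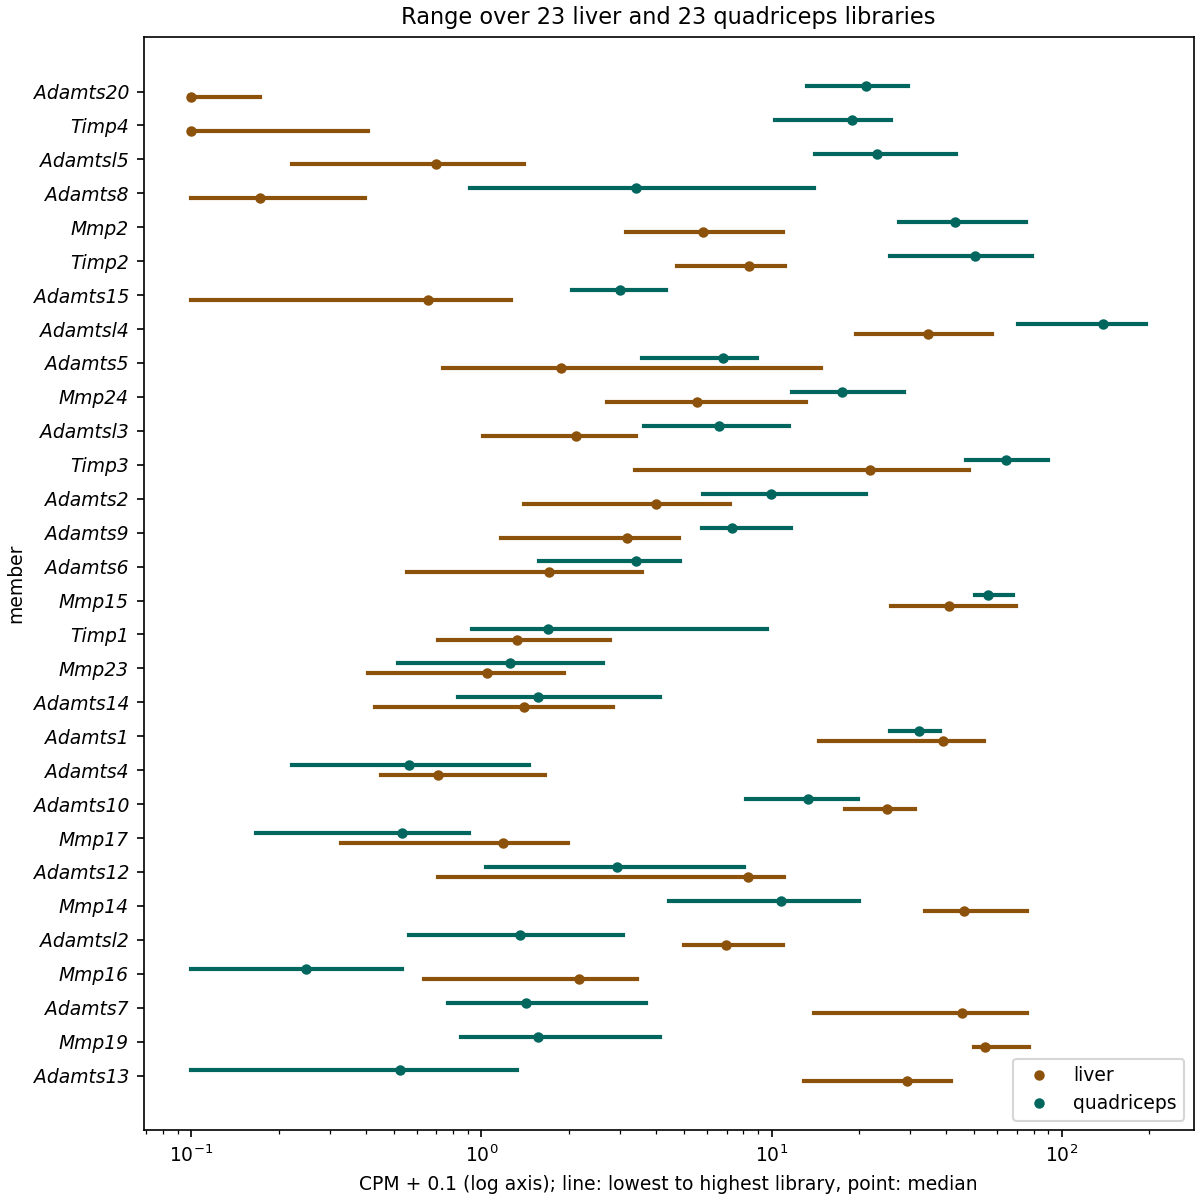
Levels of the 30 tested members in liver and quadriceps, as CPM plus 0.1 on a log axis, scaled by TMM within each tissue. Lines run from the lowest to the highest of 23 libraries per tissue and points mark the median. Adamts20 and Timp4 sit at the top, near 0 in liver, and Adamts13 and Mmp19 at the bottom, where the liver ranges lie wholly above the quadriceps ranges.

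The RefSeq promoter table (build GRCr8) held 37 of the 48 members. Printed here are the 250 bases before and 50 after the start site of the 4 members that changed in a comparison below and are in that table, together with Mmp10, which stood out in 1 quadriceps library and differs in its motifs. Capitals mark the GC box GGGCGG, the AP-1 motif TGANTCA and the TATA box TATAAA, searched on both strands.

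Adamtsl4, chr2:185935747-185936046, minus strand: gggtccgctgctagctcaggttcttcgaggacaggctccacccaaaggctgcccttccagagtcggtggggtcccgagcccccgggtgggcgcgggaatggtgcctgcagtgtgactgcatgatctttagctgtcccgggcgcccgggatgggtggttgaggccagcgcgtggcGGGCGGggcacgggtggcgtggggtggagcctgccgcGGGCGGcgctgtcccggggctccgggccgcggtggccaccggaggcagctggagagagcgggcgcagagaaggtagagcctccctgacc
Mmp15, chr19:9690951-9691250, minus strand: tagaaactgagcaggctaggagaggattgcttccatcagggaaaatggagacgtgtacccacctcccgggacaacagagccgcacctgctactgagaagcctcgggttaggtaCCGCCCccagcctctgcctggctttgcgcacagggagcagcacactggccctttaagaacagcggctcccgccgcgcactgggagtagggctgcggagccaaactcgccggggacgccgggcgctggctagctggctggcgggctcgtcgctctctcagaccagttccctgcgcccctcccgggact
Adamts14, chr20:29762633-29762932, minus strand: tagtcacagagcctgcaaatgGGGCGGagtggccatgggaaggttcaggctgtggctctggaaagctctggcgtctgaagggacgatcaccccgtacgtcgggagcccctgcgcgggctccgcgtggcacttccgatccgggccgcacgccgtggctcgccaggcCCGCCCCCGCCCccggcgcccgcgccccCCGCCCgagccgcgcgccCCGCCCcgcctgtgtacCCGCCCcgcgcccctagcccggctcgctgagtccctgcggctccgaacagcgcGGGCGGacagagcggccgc
Timp1, chrX:3771073-3771372, minus strand: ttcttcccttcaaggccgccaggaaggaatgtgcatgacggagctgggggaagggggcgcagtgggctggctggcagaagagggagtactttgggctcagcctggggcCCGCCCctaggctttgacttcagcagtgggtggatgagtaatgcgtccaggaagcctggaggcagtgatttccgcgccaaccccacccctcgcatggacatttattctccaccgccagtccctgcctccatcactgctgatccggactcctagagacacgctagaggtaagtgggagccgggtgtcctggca
Mmp10, chr8:12974457-12974756, plus strand: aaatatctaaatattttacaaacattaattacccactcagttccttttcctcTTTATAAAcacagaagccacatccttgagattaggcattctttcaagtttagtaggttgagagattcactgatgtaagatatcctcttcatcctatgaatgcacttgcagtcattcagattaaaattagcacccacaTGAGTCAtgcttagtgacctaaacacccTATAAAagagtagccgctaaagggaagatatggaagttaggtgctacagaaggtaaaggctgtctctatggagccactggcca

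The 4 promoters of changed members hold GC boxes and neither of the other motifs, with 7 GC boxes for Adamts14, 2 for Adamtsl4 and 1 each for Mmp15 and Timp1. Mmp10, by contrast, has no GC box, but an AP-1 motif at position -61 from the start site and TATA boxes at -198, -196 and -33, the first 2 overlapping on opposite strands. Over the 37 member promoters, 18 (48.6%) held a GC box, 7 (18.9%) an AP-1 motif and 13 (35.1%) a TATA box. Among all 33469 promoters of that length the shares were 33.1%, 7.33% and 14.2%. The median GC content was 62.0% for the member promoters and 51.7% for all. Members were counted by 1 promoter per symbol, a limit not set for the 33469. The 7 with AP-1 were Mmp1, Mmp3, Mmp7, Mmp10, Mmp12, Mmp13 and Mmp20, all on chromosome 8, and each also held a TATA box. No motif of 1 kind overlapped another in a member promoter. A match describes the letters of the window and is no evidence of binding.

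In liver, weight matching against vehicle asked what restricted feeding did without the drug. Adamts5 and the membrane-bound MMP genes Mmp14 and Mmp15 were lower, while Adamtsl4 was higher. By edgeR's quasi-likelihood test, with p-values adjusted after Benjamini and Hochberg, 4 of the 27 tested members passed (14.8%), 1 higher and 3 lower, where 7.02% of all 12702 genes passed. The median log2 fold change of the tested members was 0.21, against -0.01 for all genes, and 18 of the 27 values were positive. Without vehicle libraries 4 and 6 the median was 0.03 and 15 were positive, with the same 4 members called.

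Adamts5 (ENSRNOG00000057794) encodes aggrecanase-2, which cleaves aggrecan and versican. In liver its lowest, median and highest values were 1.26, 6.95 and 14.7 CPM in vehicle, 0.882, 1.65 and 2.09 CPM after weight matching, and 0.639, 1.40 and 2.54 CPM with CagriSema. The vehicle group was split: libraries 1, 2, 5, 6 and 8 lay between 6.34 and 14.7 CPM, above every treated library, whereas libraries 3, 4 and 7 lay at 1.46, 2.19 and 1.26 CPM, inside the treated range. Its log2 fold change after weight matching was -2.01 ± 0.40 (SE; adjusted p = 0.00356), from 6.30 ± 4.58 CPM (SD, n = 8) to 1.58 ± 0.410 CPM (n = 8). It was called in all 16 fits that each left out 1 library, at -2.17 to -1.72, and stood at -1.84 without vehicle libraries 4 and 6.

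The fibroblast marker list summed to 611 to 1183 CPM in vehicle liver and to 689 to 851 CPM after weight matching, its highest value being in library 6, where Adamts5 was also highest. Most of that sum was Dpt and Dpp4, with vehicle means of 681 and 218 CPM, and neither passed (-0.38, adjusted p = 0.0930, and -0.11, adjusted p = 0.454). The 1 of the 4 tested fibroblast markers that passed, Pdgfra, rose by 0.66 (adjusted p = 0.0204), and Fbn1 stood at 0.34 (adjusted p = 0.326). Stellate cell markers summed to 104 to 171 and to 117 to 224 CPM, and none of the 9 tested passed. Of the 6 hepatocyte markers 3 fell, with a median log2 fold change of -0.67. On the fibroblast list, Col15a1 was at 0 in 22 and Mfap5 in 20 of the 23 liver libraries. The part of these cells in the changes of Adamts5 and the other members was not tested.

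Adamtsl4 (ENSRNOG00000049385), which encodes a microfibril-binding protein needed to hold the eye lens in place, lay at 19.5, 28.4 and 35 CPM in vehicle (lowest, median, highest), at 29.4, 43.9 and 57.4 CPM after weight matching, and at 20.0, 32 and 40.5 CPM with CagriSema. All but 1 weight-matched library lay above every vehicle library, the exception being library 32. It rose, with a log2 fold change of 0.66 ± 0.16 (adjusted p = 0.0147), and passed in all 16 fits leaving out 1 library. The other 3 ADAMTS-like genes did not pass, at 0.14 to 0.45.

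Mmp14 (ENSRNOG00000010947) lay at 43.7, 51.7 and 76.0 CPM in vehicle, 33.6, 41.3 and 46.4 CPM after weight matching and 42.5, 48.2 and 56.4 CPM with CagriSema. The weight-matched libraries overlapped only the low end of vehicle, and library 5 was the highest of all. Mmp14 fell by 0.40 (SE 0.10, adjusted p = 0.0160) and passed in all 16 fits leaving out 1 library.

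Mmp15 (ENSRNOG00000012622) encodes MT2-MMP, a close relative of MT1-MMP. Its values were 29.3, 44.1 and 60.5 CPM in vehicle, 25.8, 29.8 and 39.1 CPM after weight matching, and 36.9, 47.4 and 69.5 CPM with CagriSema. Vehicle library 4, at 29.3 CPM, was the 1 vehicle library inside the weight-matched range. Mmp15 fell by 0.49 (SE 0.14, adjusted p = 0.0306), and the call was lost without vehicle library 2 or 6 or weight-matched library 27, 28, 30 or 31 (adjusted p up to 0.0658) and with no filter on low counts (adjusted p = 0.0513).

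The other 23 tested members did not pass, among them further proteoglycanases and membrane-anchored MMPs. Adamts1, a proteoglycanase gene like Adamts5 and the genomic neighbour of Adamts5, lay at 14.5, 32.7 and 40.5 CPM in vehicle and 31.7, 48.8 and 54.0 CPM after weight matching (0.54 ± 0.17, adjusted p = 0.0604). DESeq2 called it, with an adjusted p of 0.0337, and the lowest vehicle value was that of library 6, which stood apart. Timp3, the TIMP that binds to the matrix and also blocks ADAM and ADAMTS proteases, had 15.5 ± 6.70 CPM in vehicle and 27.1 ± 11.0 CPM after weight matching (0.80 ± 0.29, adjusted p = 0.10). Its lowest library was vehicle 4, at 3.28 CPM. Timp1 (-0.09 ± 0.22, adjusted p = 0.826) and Timp2 (0.06 ± 0.16, adjusted p = 0.851) stood near 0.

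Both procollagen N-proteinases tested, Adamts2 and Adamts14, which remove the N-terminal propeptide of fibrillar collagens, had positive values of 0.34 and 0.28 that did not pass. Mmp2 stood at 0.37 ± 0.21 (adjusted p = 0.262) and Mmp19 at -0.16 ± 0.08 (adjusted p = 0.231). The Mmp19 libraries lay at 49.9, 57.6 and 77.1 CPM in vehicle, 50.5, 52.7 and 56.3 CPM after weight matching and 54.1, 58.1 and 65.3 CPM with CagriSema, the weight-matched range lying inside that of vehicle. Adamts4, the gene of aggrecanase-1, lay between 0.362 and 1.55 CPM over the vehicle and weight-matched livers, with -0.47 ± 0.31 (adjusted p = 0.349). Adamts13 had 22.6 ± 6.48 CPM in vehicle and 31.7 ± 5.78 CPM after weight matching (0.48 ± 0.16, adjusted p = 0.0751), and passed by DESeq2 with an adjusted p of 0.0466. Its lowest library was vehicle 6, at 12.9 CPM. Mmp24, which encodes the membrane-bound MT5-MMP, lay at 4.95, 5.99 and 13.0 CPM in vehicle and 2.96, 3.31 and 6.81 CPM after weight matching (-0.68 ± 0.25, adjusted p = 0.0973). The membrane-anchored Mmp16 (0.32 ± 0.25, adjusted p = 0.440) and Mmp17 (0.72 ± 0.29, adjusted p = 0.133) had positive values. Mmp9, the gelatinase B gene, was too low to be tested, at a median of 0.337 CPM in vehicle and 0.447 CPM after weight matching, and the secreted collagenases Mmp1, Mmp8 and Mmp13 and the stromelysins Mmp3 and Mmp10 were likewise untested.

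CagriSema against vehicle in liver asked what drug and weight loss did together, and uses the same vehicle libraries. Adamts5 was the 1 member of 27 that passed by edgeR's quasi-likelihood test (3.70%, against 0.354% of all genes), and 5 members had an unadjusted p under 0.05. Its log2 fold change was -2.03 ± 0.41 (adjusted p = 0.0434), with a mean of 1.56 ± 0.622 CPM (SD, n = 7) in the drug group. All 7 CagriSema libraries lay below the 5 higher vehicle libraries. The call was kept without vehicle libraries 4 and 6 (-1.85, adjusted p = 0.0496) and by DESeq2. It was lost when vehicle library 1, 5, 6 or 8 or CagriSema library 33, 34, 35, 36, 38 or 40 was left out (adjusted p up to 0.0982), in a fit of the 2 groups alone (adjusted p = 0.152) and with no filter on low counts (adjusted p = 0.0638).

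The 3 members besides Adamts5 that changed with weight matching did not pass here. Mmp14 stood at -0.13 ± 0.10 (adjusted p = 0.505), Mmp15 at 0.09 ± 0.14 (adjusted p = 0.757) and Adamtsl4 at 0.20 ± 0.16 (adjusted p = 0.501). The largest positive values were those of Adamts2 (0.69 ± 0.23, adjusted p = 0.154) and Adamtsl5 (0.69 ± 0.36, adjusted p = 0.311). Adamts2 libraries lay at 4.14, 5.13 and 5.85 CPM with CagriSema, 1 of the 8 vehicle libraries lying in that range. The median over tested members was 0.20, with 20 of 27 positive, and it was 0.03 without vehicle libraries 4 and 6. All 9 tested stellate markers failed the test, with a median of 0.18, and of the 4 fibroblast markers Pdgfra rose by 0.81 (adjusted p = 0.0449) while Fbn1 (0.55), Dpp4 (0.01) and Dpt (-0.41) did not pass. Both tested mesothelium markers rose, Msln by 1.26 (adjusted p = 0.0433) and Upk3b by 1.68 (adjusted p = 0.0492), and that list summed to 1.45 to 3.38 CPM in vehicle and 3.60 to 8.44 CPM with CagriSema. Of the 6 hepatocyte markers 1 fell, Alb (-0.42, adjusted p = 0.0449). Their part in the members' values was not tested.

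**Figure D2:**
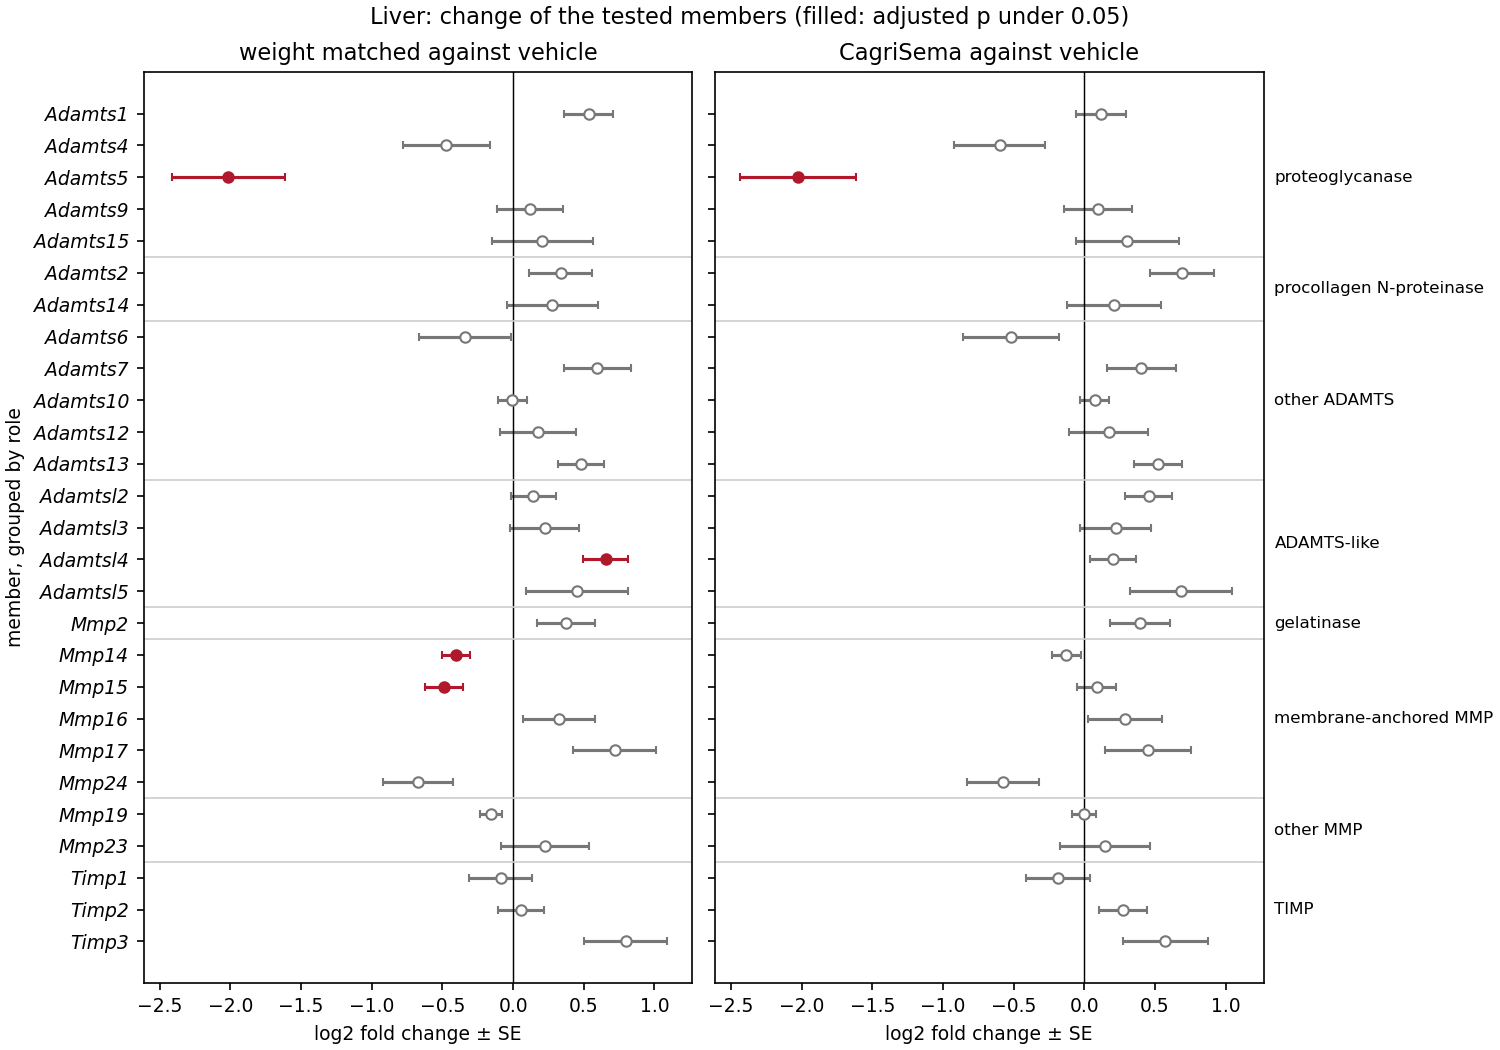
Log2 fold change ± SE of the 27 members tested in liver, for weight matching (left) and CagriSema (right) against the same vehicle libraries, ordered by role. Filled red points passed at an adjusted p under 0.05. Adamts5 sits near -2 in both panels, whereas Adamtsl4, Mmp14 and Mmp15 are filled on the left alone.

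CagriSema against weight matching in liver asked what the drug did at a matched weight. Adamts5, low in both groups, differed by -0.01 ± 0.43 (adjusted p = 0.999). No member passed by edgeR's quasi-likelihood test, where 0.535% of all genes did, and 4 had an unadjusted p under 0.05. DESeq2 called 1, Mmp15. It was higher with CagriSema by 0.58 ± 0.14 (edgeR adjusted p = 0.0583), and 6 of the 7 CagriSema libraries lay above all 8 weight-matched ones. Its adjusted p was 0.0104 by DESeq2, 0.0205 with the 2 groups alone and 0.176 without CagriSema library 39, the highest at 69.5 CPM. Mmp14 (0.28 ± 0.10, adjusted p = 0.266), Adamtsl4 (-0.45 ± 0.16, adjusted p = 0.258) and Adamts1 (-0.42 ± 0.18, adjusted p = 0.368) did not pass.

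In quadriceps, weight matching against vehicle gave lower levels of Timp1 and Adamts14. These were 2 of 27 tested members (7.41%) by edgeR's quasi-likelihood test, against 2.29% of all 12471 genes, and the other 25 did not pass. The median log2 fold change of the members was -0.28, against -0.01 for all genes, and 21 of the 27 were negative. Without vehicle libraries 2 and 5 no member passed, 0.151% of all genes did, and the median was -0.22.

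Timp1 (ENSRNOG00000010208) encodes the secreted inhibitor of most MMPs, a gene known to be induced by injury and inflammation. Its lowest, median and highest values were 1.11, 2.44 and 9.56 CPM in vehicle, 0.891, 1.31 and 2.17 CPM after weight matching, and 0.831, 1.5 and 2.22 CPM with CagriSema. Vehicle libraries 2, 5 and 1 were high, at 9.56, 5.37 and 4.49 CPM, and libraries 6 and 7, at 2.44 and 2.34 CPM, also lay above every treated library, while libraries 4 and 8 lay among them. Timp1 fell by 1.38 (SE 0.34, adjusted p = 0.0328) after weight matching. It stood at -0.70 without vehicle libraries 2 and 5 (adjusted p = 0.283). Single libraries whose loss ended the call were vehicle 2 and 5 and weight-matched 25, 26, 28 and 30 (adjusted p up to 0.0881), as did a fit of the 2 groups alone (adjusted p = 0.118) and no filter on low counts (adjusted p = 0.0528).

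Adamts14 (ENSRNOG00000000563) was low throughout, at 0.858, 2.01 and 4.03 CPM in vehicle, 0.733, 1.11 and 1.47 CPM after weight matching, and 0.942, 1.57 and 2.02 CPM with CagriSema. All vehicle libraries but library 4 lay above every weight-matched library. It fell by 0.93 (SE 0.25, adjusted p = 0.0474), and stood at -0.62 without vehicle libraries 2 and 5 (adjusted p = 0.281). The call held in 4 of 15 fits leaving out 1 library. It was lost without vehicle library 2, 5, 7 or 8 or without any weight-matched library but 29, with an adjusted p up to 0.150. A fit of the 2 groups alone gave 0.123 and no filter on low counts 0.0709. Adamts2, the main procollagen N-proteinase, stood at -0.66 ± 0.20 (adjusted p = 0.0758) and passed by DESeq2 (adjusted p = 0.0332). Without vehicle library 8, Timp1 (-1.53, adjusted p = 0.0166) and Adamts2 (-0.79, adjusted p = 0.0246) passed and Adamts14 did not (adjusted p = 0.0717).

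Fibroblast markers summed to 93.6 to 289 CPM in vehicle quadriceps, highest in library 5, and to 85.5 to 199 CPM after weight matching. Of the 7 tested, 1 fell, Col15a1 (-0.83, adjusted p = 0.00975). Of the 5 pericyte and smooth muscle markers 1 fell, Cspg4 (-0.60, adjusted p = 0.0474). The cholangiocyte list, which holds Spp1, ran from 3.92 to 210 CPM in vehicle and from 2.81 to 68.6 CPM after weight matching, and its highest library was vehicle 2, also the highest for Timp1. Neither of its 2 tested genes passed. Tendon markers ran from 49.0 to 367 CPM with a median of 264 in vehicle, and from 71.9 to 212 CPM with a median of 133 after weight matching, and none of the 5 passed. Tnmd, a defining tendon gene, was at 0 in 1 of 23 libraries. The part of fibroblasts, pericytes, smooth muscle and tendon cells in the lower Timp1 and Adamts14 was not tested.

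The remaining inhibitors did not pass. Timp2 lay at 41.5, 56.0 and 79.1 CPM in vehicle, 31.8, 49.7 and 69.1 CPM after weight matching and 25.6, 49.4 and 61.2 CPM with CagriSema (-0.24 ± 0.19 for weight matching, adjusted p = 0.522). Timp3 lay at 46.5, 56.5 and 90.0 CPM, 52.3, 65.1 and 82.9 CPM, and 58.3, 64.3 and 71.7 CPM (0.06 ± 0.12, adjusted p = 0.843). Timp4 lay at 10.2, 18.9 and 25.8 CPM, 13.4, 18.7 and 20.7 CPM, and 15.2, 18.5 and 23.5 CPM (-0.15 ± 0.15, adjusted p = 0.626). For all 3 the groups overlapped, and vehicle held the widest range.

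Mmp2 lay at 39.9, 53.3 and 75.1 CPM in vehicle and 27.3, 40.5 and 55.0 CPM after weight matching (-0.43 ± 0.19, adjusted p = 0.218). Neither Mmp14 (-0.53 ± 0.27, adjusted p = 0.293) nor Mmp15 (-0.10 ± 0.07, adjusted p = 0.488) passed in muscle. Adamtsl4, which rose in liver, lay at 70.9, 120 and 195 CPM in vehicle quadriceps, 93.2, 147 and 177 CPM after weight matching and 125, 163 and 183 CPM with CagriSema, and its change with weight matching was 0.10 ± 0.19 (adjusted p = 0.818). Its vehicle range enclosed both treated ranges. None of the 7 proteoglycanases passed. Adamts5 stood at -0.28 ± 0.19 (adjusted p = 0.419), Adamts1 at -0.02 ± 0.08 (adjusted p = 0.924) and Adamts4 at -0.30 ± 0.42 (adjusted p = 0.748). Adamts20, at 0.42 ± 0.14 (adjusted p = 0.109), passed when vehicle library 2, its highest vehicle value at 29.3 CPM, was left out (0.57, adjusted p = 0.0253).

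Mmp10, the stromelysin-2 gene, was not tested in either tissue because too few libraries held enough counts. It is named after its values were seen. Quadriceps vehicle library 2, which was also the highest for Timp1, held it at 19.3 CPM. The other 6 vehicle libraries lay at 0.680 CPM or below, the weight-matched ones at 0.542 CPM or below and the CagriSema ones at 0.739 CPM or below.

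**Figure D3:**
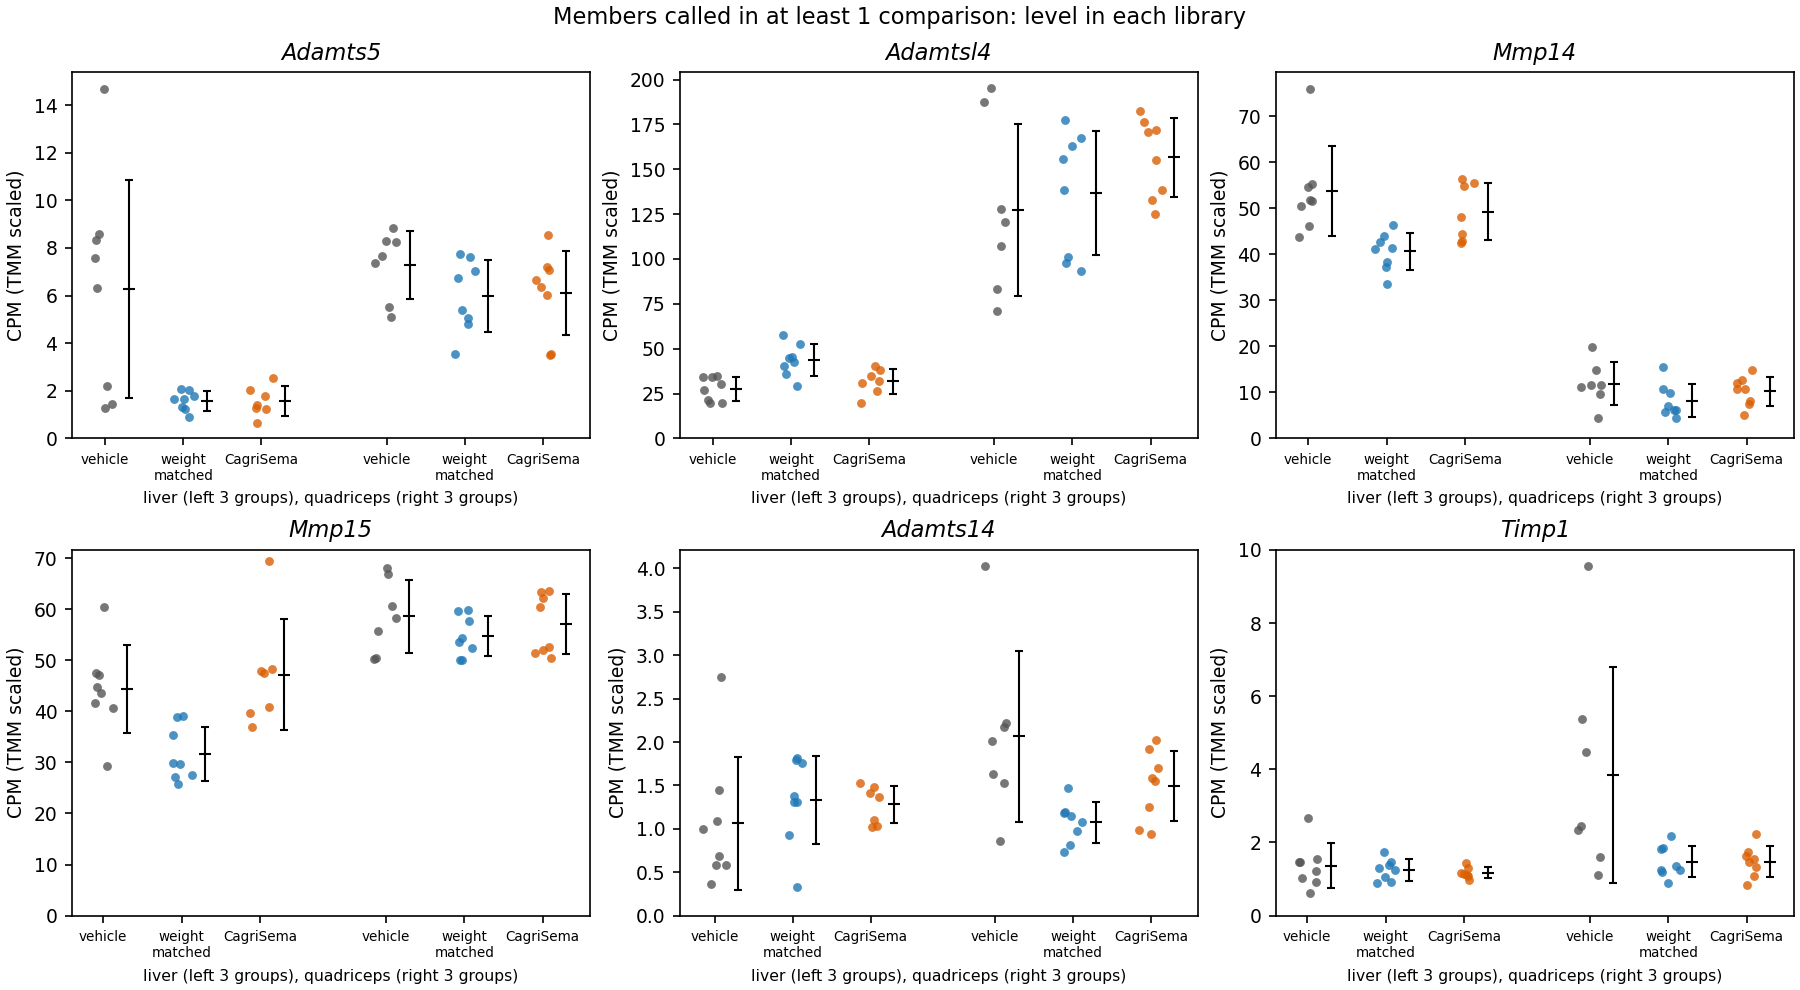
CPM in each library for the 6 members called in at least 1 comparison, with liver groups on the left and quadriceps groups on the right of each panel. Points are libraries and bars the mean ± SD. Vehicle livers split into a high and a low set for Adamts5, and in quadriceps the vehicle libraries of Timp1 reach 9.56 CPM while no treated library exceeds 2.22 CPM.

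For CagriSema against the same quadriceps vehicle libraries, no member passed by edgeR's quasi-likelihood test, where 0.0321% of all genes passed. There were 3 members with an unadjusted p under 0.05, and DESeq2 called 1, Timp1. Timp1 stood at -1.37 ± 0.34 (edgeR adjusted p = 0.181, DESeq2 adjusted p = 0.0347). The Timp1 estimate after weight matching was close to this (-1.38) and passed there, where 2.29% of all genes did. Its 8 CagriSema libraries lay below 5 of the 7 vehicle libraries. Adamts14 stood at -0.45 ± 0.24 (adjusted p = 0.532) and Mmp2 at -0.29 ± 0.19 (adjusted p = 0.598). The members' median was -0.20 with 21 of 27 negative, and -0.12 without vehicle libraries 2 and 5.

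For CagriSema against weight matching in quadriceps no member passed by edgeR's quasi-likelihood test or by DESeq2, and 1 had an unadjusted p under 0.05, where 0.128% of all genes passed. That member was Adamts7, at 0.81 ± 0.31 (adjusted p = 0.544). Timp1 stood at 0.01 ± 0.35 (adjusted p = 0.997) and Adamts14 at 0.47 ± 0.25 (adjusted p = 0.667). The members' median was 0.06, with 17 of 27 positive.

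**Figure D4:**
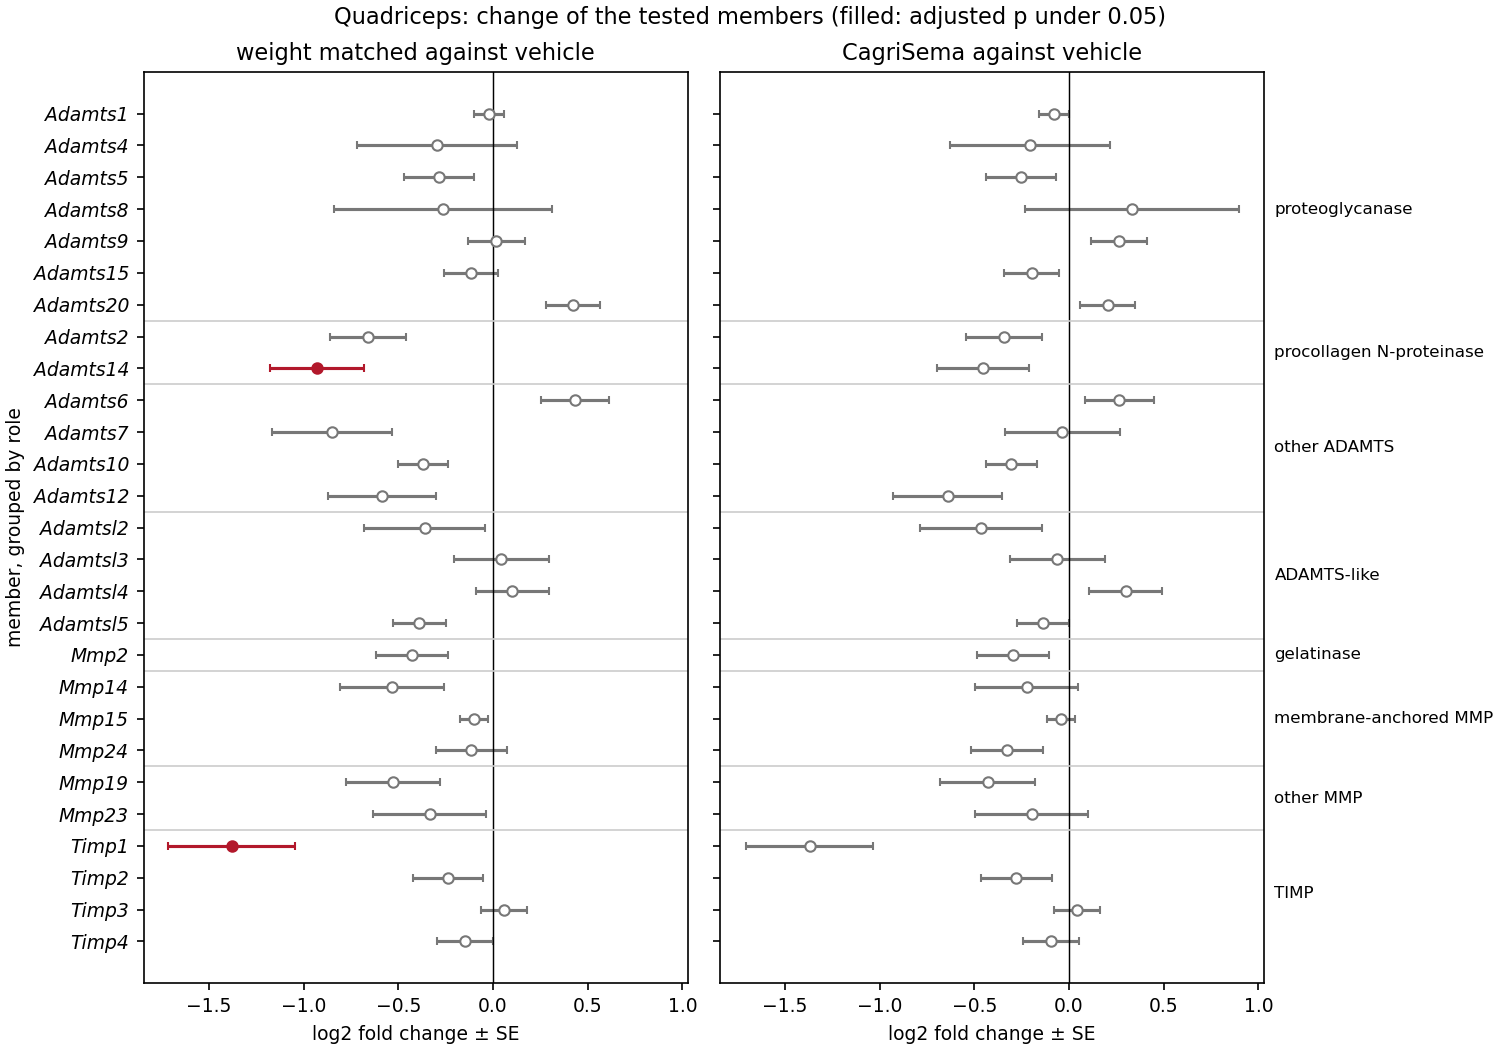
Log2 fold change ± SE of the 27 members tested in quadriceps, for weight matching (left) and CagriSema (right) against the same vehicle libraries, ordered by role. Filled red points passed at an adjusted p under 0.05. On the left Adamts14 and Timp1 are filled and most points lie below 0, and on the right no point is filled.

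Whether a change differed between the tissues was tested with an interaction term fitted to liver and quadriceps together (46 libraries, 14110 genes). For weight matching, 2 of 30 members passed by edgeR's quasi-likelihood test, against 2.76% of all genes, and 14 had an unadjusted p under 0.05. For Adamts5, the quadriceps change minus the liver change was 1.74 ± 0.44 (adjusted p = 0.0220), so its decrease was larger in liver. That call was lost without liver vehicle library 6 (1.44, adjusted p = 0.0548) and kept in the other 30 fits leaving out 1 library.

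For Adamts7 the difference was -1.45 ± 0.42 (adjusted p = 0.0479), from 0.60 in liver and -0.85 in quadriceps, neither of which passed alone. Liver values of Adamts7 were 13.9, 38.1 and 50.4 CPM in vehicle and 31.4, 53.1 and 76.1 CPM after weight matching, vehicle library 4 being the lowest. Quadriceps values were 0.680, 1.76 and 3.61 CPM and 0.667, 0.812 and 1.33 CPM, with vehicle library 5 the highest. Without liver vehicle libraries 4 and 6 and quadriceps vehicle libraries 2 and 5 the difference was -0.75 (adjusted p = 0.402). The call held in 13 of 31 fits leaving out 1 library. It was lost without liver vehicle 1, 4 or 6, liver weight-matched 27 to 32, quadriceps vehicle 2, 5, 6 or 7, or quadriceps weight-matched 25, 26, 28, 30 or 31.

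Apart from that of Adamts5, the decreases called in 1 tissue alone were not shown to differ between tissues in this fit, which did not pair libraries by number. Timp1 differed by -1.29 ± 0.41 (adjusted p = 0.0737), Adamts14 by -1.20 ± 0.41 (adjusted p = 0.0941), Mmp14 by -0.13 ± 0.28 (adjusted p = 0.866) and Mmp15 by 0.39 ± 0.16 (adjusted p = 0.172). The increase of Adamtsl4 was likewise not shown to differ, at -0.55 ± 0.25 (adjusted p = 0.227). Adamts2, called in neither tissue, differed by -0.99 ± 0.31 (adjusted p = 0.0612). With a replicate block on library number, fitted to the 44 libraries whose number occurs in both tissues, Adamts14 and Adamts2 were both called. For CagriSema no member passed the interaction by edgeR's quasi-likelihood test, where 0.149% of all genes did and 10 members had an unadjusted p under 0.05. Adamts5 differed there by 1.78 ± 0.45 (adjusted p = 0.0652).

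A list of 76 genes that act with these proteases, chosen with earlier results of these data known, was set beside the members. It holds substrates, crosslinking enzymes, the plasminogen system, cathepsins, related proteases, other inhibitors and inducers. In liver after weight matching, 2 of 62 tested rose and 3 fell (8.06%, near the 7.02% of all genes), at a median log2 fold change of 0.08. Bmp1, the procollagen C-proteinase that works on the same collagens as Adamts2 and Adamts14, fell from 134 ± 22.2 to 88.3 ± 10.3 CPM (adjusted p = 0.00142). Ctsb, the lysosomal cathepsin B gene, fell by 0.41 (adjusted p = 0.00927). Pcsk6, a proprotein convertase gene, rose by 0.48 (adjusted p = 0.0353), a call lost without vehicle library 2 or 5 or weight-matched library 25, 26, 27 or 29. Lox, the gene of lysyl oxidase, which crosslinks collagen, fell by 2.92 (adjusted p = 0.0427), from 25.5 ± 30.3 to 3.41 ± 3.43 CPM. That call was lost without vehicle library 1, 3 or 8 or weight-matched library 25 to 29 or 31. Ets1, a transcription factor gene, rose by 0.27 (adjusted p = 0.0479), a call lost without vehicle library 1, 3, 6 or 8 or weight-matched library 26 to 32. Lox and Ets1 are named after their values were seen. Without vehicle libraries 4 and 6, 1 rose and 6 fell. With CagriSema none of the 62 passed in liver by edgeR's test. DESeq2 tested 72 and called 1, which fell, where it called 1.29% of all genes. All 13 substrates tested by edgeR had positive values at a median of 0.45, or 12 of 13 at 0.30 without vehicle libraries 4 and 6.

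In quadriceps after weight matching, 9 of 62 fell and 1 rose (16.1%, against 2.29% of all genes). Among those that fell were 6 of the 15 tested substrates, whose median was -0.84. Col4a1 and Col4a2, the chains of basement membrane collagen, fell by 0.89 each (adjusted p = 1.28e-04 for both), and Col6a1, a microfibrillar collagen gene, fell by 0.80 (adjusted p = 0.00736). Of the 7 crosslinking genes, Lox and Loxl2 also fell by edgeR's test (-1.29 and -1.20, adjusted p = 0.0171 for both). The 1 gene that rose, Plat, encodes tissue plasminogen activator (0.40, adjusted p = 0.0290). That call was lost without vehicle library 2 or 5 or weight-matched library 25, 26 or 28. Lox, Loxl2 and Plat are named here after their values were seen. Without vehicle libraries 2 and 5, only 3 of the 62 fell, all of them substrates, and none rose. The substrate median there was -0.53, and 0.151% of all genes passed. With CagriSema the genes Col4a1 and Col4a2 fell by 0.59 each (adjusted p = 0.0391 and 0.0397), and neither passed without vehicle libraries 2 and 5. Both of those calls were lost when vehicle library 2, 5 or 7 or any CagriSema library was left out. Plat was lower with CagriSema than after weight matching by 0.50 (adjusted p = 0.0229), a call lost without weight-matched library 26, 28 or 29 or CagriSema library 36.

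Several members have close relatives or lie beside one another, such as Mmp14 and Mmp15, Adamts1 and Adamts5, and the MMP cluster on chromosome 8. How reads shared between related sequences were counted is not stated in the sources read.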

How the data were processed

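The deposited table holds raw counts per gene, per the file headers, for the 46 libraries used here, and the counts sum to a different total in each. RNA was extracted with the RNeasy Minikit and libraries carried Twist UMIs, per the labels' protocols, and fastp 0.23.1 and STAR 2.5.2b are named in the submitters' processing notes. The genome build, annotation, counting tool, strand setting and use of UMIs are not stated in the sources read. Beside them, 1 column named as a muscle library matched no sample's labels and was not used. Library totals and the limit of 3 counts are given above; intervals and limits of this kind cover counting error alone.

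Liver and quadriceps were each fitted over their 3 groups in R 4.3.3 with edgeR 4.0.16 (filterByExpr, TMM scaling, quasi-likelihood F test), with Benjamini-Hochberg adjustment over all 12702 and 12471 genes tested and calls at an adjusted p under 0.05. The tissue interaction was fitted over 14110 genes. SE are on the log2 scale, and CPM use TMM-scaled totals. Named with full values are members called in any comparison, the 4 TIMPs, Mmp2, Mmp9, Mmp14, Adamts1, Adamts4 and Adamts5, and the 5 members highest in CPM in each tissue, and up to 3 partners per comparison by lowest p. Outside that rule, values of Adamts2, Adamts13, Adamts20, Adamtsl5, Mmp10, Mmp16, Mmp17 and Mmp24 are also given, chosen with the results known. The partners Lox, Loxl2, Ets1 and, for weight matching in quadriceps, Plat go beyond the limit of 3. The steps were tested on simulated data. No 2 libraries of a tissue agreed within sampling noise (lowest chi-square per degree of freedom 12.9 in liver and 5.47 in quadriceps, over 253 pairs each).

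The members, the partner list and the marker lists were chosen with earlier results of these data known. Alternatives were RLE size factors, no filter, DESeq2 1.42.0, the 2 groups alone, each library left out, a replicate block and, added after seeing the data, fits without the libraries that stood apart.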

Additional observations from a re-analysis of the deposited data

Results flagged for a closer look

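In 9 of 90 groups of libraries tested, 1 library lay far from the rest of its group by Dixon's test, where chance gives about 1 in 20, and 6 of the 9 were in vehicle groups. In quadriceps vehicle, library 5 stood out for Adamts14 (4.03 CPM, next 2.22) and Mmp19 (4.03 CPM, next 2.01), and library 6 for Adamts1 (25.7 CPM, next 32). In liver vehicle, library 5 stood out for Adamts14 (2.75 CPM, next 1.45) and Mmp14 (76.0 CPM, next 55.3), and library 4 for Timp1 (2.67 CPM, next 1.55). The remaining 3 were Mmp15 in CagriSema liver 39 (69.5 CPM, next 48.2), Timp4 in CagriSema liver 33 (0.305 CPM, next 0.0609) and Mmp9 in weight-matched quadriceps 27 (0.232 CPM, next 0.0743), the last of these near the limit that a count of 0 allows.

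The change with weight matching differed between the tissues, by edgeR's test of the interaction, for Adamts5 (quadriceps minus liver 1.74) and Adamts7 (-1.45). Neither call held without liver vehicle library 6. The Adamts7 call was also lost without many other single libraries, as given above.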

How the results depend on the processing

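Of the liver calls after weight matching, those of Adamts5, Adamtsl4 and Mmp14 passed in each fit that left out 1 library. The number of called members ranged, over fits leaving out 1 library, from 3 to 6 for weight matching in liver (4 with all libraries), 0 to 1 for CagriSema against vehicle (1) and 0 to 1 for CagriSema against weight matching (0). In quadriceps it ranged from 0 to 2 for weight matching (2) and stayed at 0 to 0 for both CagriSema comparisons. For the tissue difference it ranged from 0 to 5 for weight matching (2) and 0 to 1 for CagriSema (0). With no filter on low counts, or with the 2 groups alone, the count was 0 for CagriSema against vehicle in liver and 0 for weight matching in quadriceps, where it was also 0 without vehicle libraries 2 and 5. CagriSema against weight matching in liver gave 1 by DESeq2 and 1 with the 2 groups alone, and CagriSema against vehicle in quadriceps gave 1 by DESeq2. The tissue difference for weight matching gave 1 without the 4 vehicle libraries that stood apart. No label states that same-numbered liver and quadriceps libraries come from 1 animal. Of 22 such liver libraries, 18 correlated best with their own number among the quadriceps libraries of that treatment. The correlations were small, with r from 0.00135 to 0.210 and 6 of 22 above 0.1. Random matching within a treatment would give the own number far less often, so same-numbered libraries may come from 1 animal. The main interaction fit did not pair libraries by number. With a replicate block on that number the tissue difference for weight matching called 4 members (Adamts2, Adamts5, Adamts7 and Adamts14) and that for CagriSema called 0, where the same libraries without the block gave 1. Over all genes, calls for weight matching in liver numbered 892, 641 with no filter, 1329 by DESeq2, 414 with the 2 groups alone and 532 to 1207 leaving out 1 library. For CagriSema in liver they numbered 45, 13, 280, 4 and 3 to 130 in the same order. For weight matching in quadriceps they numbered 285, 131, 636, 7 and 46 to 645, with 19 left without vehicle libraries 2 and 5. For members listed as low, and for Adamts14 and Timp1 near a few CPM, depth limits what could be seen. The cause of these shifts was not tested. Some fits held fewer libraries, while those with no filter and by DESeq2 took in more genes, 21668 in liver and 21458 in quadriceps.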
